A study of Mus musculus with 9 samples.

Results

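The genes described here carry a Spata (spermatogenesis associated) or Tex (testis expressed) symbol followed by a digit. Symbols were read from GENCODE M21, a row was kept when its counts summed to at least 10 over all libraries, and 62 genes (27 Spata and 35 Tex) of the 23074 in the table met this rule. All 62 passed the filter on low counts and were among the 15613 genes tested. Testes were taken without their capsule at postnatal days 29 to 30 (P30) from 5 wild type mice and 4 mice lacking Rfx2 (Rfx2-/-), and 1 RNA-seq library was made from each animal. The comparison asked which testicular mRNAs depend on RFX2, a member of the RFX transcription factors. Mice of both genotypes were of a mixed C57BL/6, 129/Sv and FVB/N background. The Rfx2-/- mice lacked exon 7, which encodes much of the DNA binding domain, after crossing to a strain with Cre under the actin promoter, so that the deletion was not restricted to germ cells, and the mixed background line kept a neomycin cassette at the locus.

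The 2 symbol series were assigned by expression in the testis and not by shared descent, and their proteins range from meiotic factors and structural parts of the sperm tail to housekeeping enzymes. In the testis, spermatogonia divide and enter meiosis as spermatocytes, whose products, the haploid round spermatids, elongate and build an acrosome, a condensed head and a flagellum. RFX proteins bind the X-box, an inverted repeat found in the promoters of many ciliary genes.

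Rfx2 was measured at 549.3 ± 54.5 CPM (counts divided by the TMM-adjusted library total, mean ± SD, n = 5) in wild type and 146.1 ± 59.7 (n = 4) in Rfx2-/- testes, with 470.9 to 623.8 and 61.5 to 199.2 CPM in single libraries (log2 fold change -1.91 ± 0.28, SE, adjusted p = 7.81e-04, edgeR). Reads from exons left in the deleted gene are still counted. The deepest library, Rfx2-/- replicate 1, held 28800855 counts and the other 8 between 13574764 and 15193330, and no member was below 8 counts in any library. Summed elongating spermatid markers were 14930 to 20320 CPM in 4 wild type libraries and 9729 in wild type replicate 3. They were 12640 in Rfx2-/- replicate 2 and 8081 to 9328 in the other Rfx2-/- libraries. Of these 14 markers 13 were below wild type, with a median log2 fold change of -0.66, and 0 were called. Of the 10 round spermatid markers 6 were below, with a median of -0.035, and 0 were called. Of the 10 spermatocyte markers 9 were above, with a median of 0.49, and 0 were called. In whole testes fewer cells of a type and less RNA per cell cannot be told apart. Rfx2-/- replicate 2 stood apart from the other 3 Rfx2-/- libraries: its mitochondrial share was 1.75% against 0.846% to 0.951%. Genes with short merged exons (under 2 kb) were high in it and genes over 8 kb low. The median log2 deviations from the mean of the other 3 Rfx2-/- libraries were 0.61 and -0.93. Wild type replicate 3 had the lowest wild type value for 47 of the 62 members. Counts of members called or past an adjusted p of 0.05 over all 62 are therefore given with and without these 2 libraries.

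Members were called when the adjusted p of edgeR was at or under 0.01 and the change exceeded 2-fold. Tex21, Spata18, Tex44, Tex52, Tex13c3, Tex45 and Spata32 were called lower in Rfx2-/- testes, which is 7 of 62 members (11.3%), where 3.68% of all genes tested were called lower. No member was called higher by edgeR or by DESeq2, where edgeR called 0.826% of all genes higher, and at an unadjusted p under 0.05 there were 6 members higher, against 13.9% of all genes, and 15 lower, against 13.7%. With no fold limit and an adjusted p of up to 0.05, Spata4 joined the lower members, which then numbered 8 (7.31% of all genes), and Tex29 was the 1 higher member (3.48% of all genes), so that 9 members (14.5%) passed against 10.8% of all genes. The other 53 members did not pass, and for 44 of them the 95% interval of the fold change lay within 2-fold in both directions. The median log2 fold change of the 62 members was -0.05 and that of all genes tested 0.03. Without Rfx2-/- replicate 2 the number called lower was again 7, of which 6 were shared, with Spata32 lost and Spata4 gained, against 4.01% of all genes, and 0 were called higher, against 1.04%. The number past an adjusted p of 0.05 was then 16, or 25.8% against 14.7% of all genes, with 15 lower (9.77% of all genes) and 1 higher (4.93%). Without wild type replicate 3, 7 members were called lower (3.58% of all genes) and 12 passed the adjusted p of 0.05 (9.7%).

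**Figure D1:**
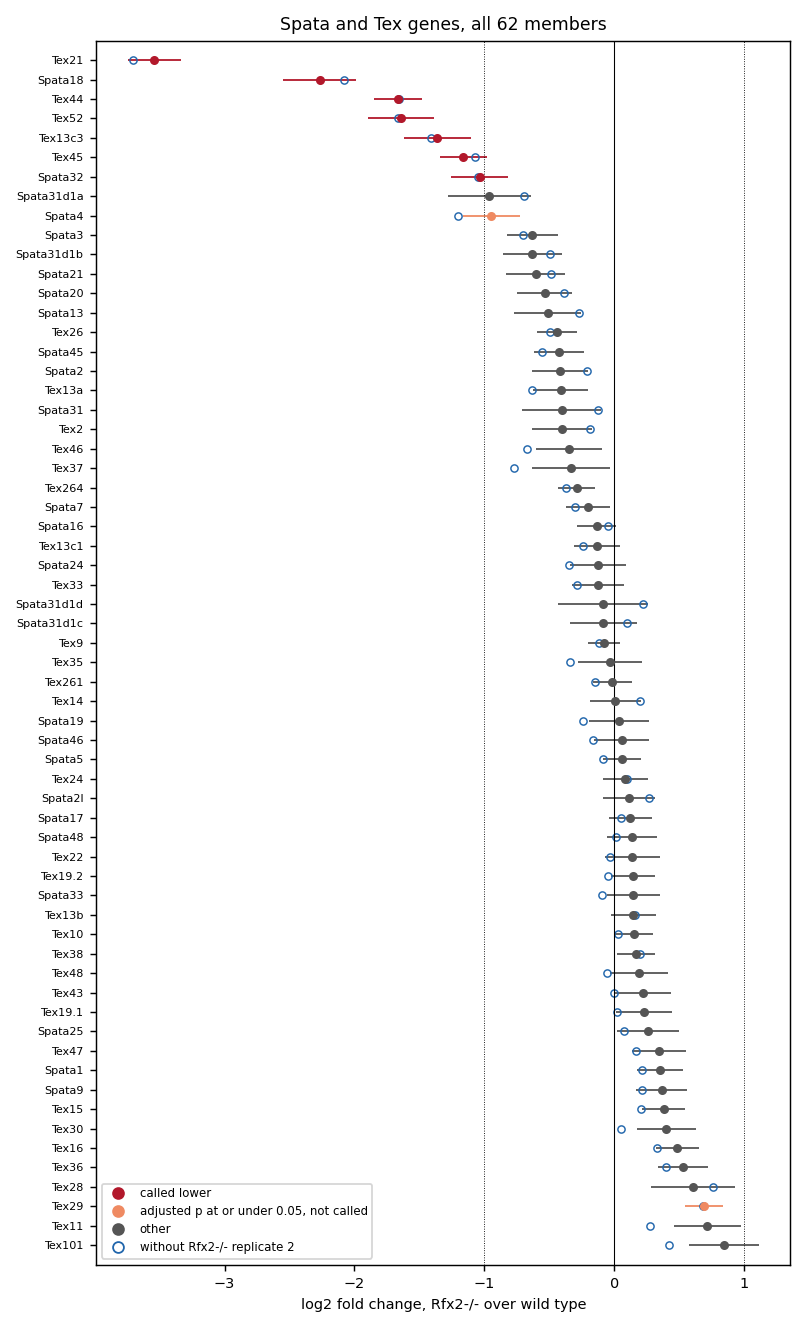
Log2 fold change of each of the 62 members in Rfx2-/- over wild type testes (points, with bars of 1 SE), ordered by value, with open circles for the fit without Rfx2-/- replicate 2 and dotted lines at 2-fold. Tex21 at -3.54 and Spata18 at -2.27 stand left of all others, and 44 of the members have an interval within 2-fold.

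The plot of ranked fold changes shows that the called members form a short tail on the lower side, and that the remaining members lie between Spata31d1a at -0.96 and Tex101 at 0.85. The open circles move most for Tex11, Tex37 and Tex101, whose values in Rfx2-/- replicate 2 were far from those of the other 3 libraries.

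Tex21, a testis gene whose protein is little characterised, had the largest change. It lies on the minus strand at chr12:76198686-76246746 (GRCm38) in 10 exon blocks. The wild type libraries measured 145.5, 151.3, 121.9, 175.2 and 179.4 CPM, and the Rfx2-/- libraries 13.5, 17.8, 10.1 and 11.8 CPM. Every Rfx2-/- value was far below the lowest wild type value, and the level of mutant testes was 8.59% of wild type. The log2 fold change was -3.54 ± 0.21 (SE, adjusted p = 2.43e-07, edgeR), and its 95% interval ran from -3.99 to -3.09.

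Spata18 encodes Mieap, a protein of mitochondrial quality control. It is on the plus strand at chr5:73651379-73679512 in 13 exon blocks. Wild type testes had 519.9, 523.6, 295.9, 453.7 and 552.1 CPM, and mutant testes 132.7, 56.4, 124.2 and 75.8 CPM. The groups were separate, although wild type replicate 3 was much lower than its group and Rfx2-/- replicate 2 was the lowest of all. It fell by 2.27 on the log2 scale (SE 0.28, adjusted p = 1.84e-04, edgeR), to 20.7% of wild type. The other 2 mitochondrial members did not pass. Spata19, needed for the sperm mitochondrial sheath, was at 256.3 ± 48.1 and 262.9 ± 95.6 CPM, and Spata33, which links calcineurin to sperm mitochondria, at 286.9 ± 36.5 and 317.5 ± 104.4 CPM (mean ± SD, n = 5 and 4).

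Tex21 and Spata18 were the members with an RFX2 promoter peak that were called, the peaks being those of the study's chromatin immunoprecipitation from wild type germ cells at P21. Their RefSeq promoters (GRCm38.p6) are shown because they combine such a peak with the greatest losses of mRNA, from 250 bases before to 20 bases after the annotated start, 5′ to 3′ on the strand of the gene. Both are in lower case throughout since neither contained the X-box letters searched, GTNNCC followed by any 3 bases and GNAAC on either strand. Only exact matches were marked. The Tex21 stretch holds gttcacctagcaac, which departs from these letters at a single base, and whether it is bound was not tested.
Tex21 promoter, chr12:76246727-76246996, minus strand: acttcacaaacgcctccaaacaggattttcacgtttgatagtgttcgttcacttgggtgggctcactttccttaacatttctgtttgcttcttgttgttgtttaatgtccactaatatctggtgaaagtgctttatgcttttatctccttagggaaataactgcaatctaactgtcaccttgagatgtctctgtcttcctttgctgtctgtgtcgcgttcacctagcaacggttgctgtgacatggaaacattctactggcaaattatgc
Spata18 promoter, chr5:73651130-73651399, plus strand: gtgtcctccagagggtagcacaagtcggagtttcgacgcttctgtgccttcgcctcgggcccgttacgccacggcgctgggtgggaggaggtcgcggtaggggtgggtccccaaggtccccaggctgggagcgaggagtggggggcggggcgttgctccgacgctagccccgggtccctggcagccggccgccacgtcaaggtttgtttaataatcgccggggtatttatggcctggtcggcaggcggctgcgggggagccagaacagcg

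Tex44, Tex52 and Tex45 were the next group of testis genes that fell, none of which had an RFX2 promoter peak. Tex44 is a single-exon gene at chr1:86426329-86428052 with a little characterised product. The wild type libraries had 83.3, 87.8, 52.2, 82.4 and 102.2 CPM, and those of mutant testes 28.5, 25.5, 25.4 and 23.2 CPM. The mutant values were tightly grouped and all less than the lowest wild type value. Its log2 fold change was -1.67 ± 0.19 (SE, adjusted p = 7.46e-05, edgeR).

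Tex45, also named Saxo5, encodes a relative of microtubule-stabilising proteins of the axoneme. Its wild type libraries gave 49.9, 54.4, 31.2, 51.2 and 47.9 CPM and its Rfx2-/- libraries 21.4, 16.9, 22.4 and 23.2 CPM. The groups were separate, with wild type replicate 3 closest to the mutants. It was lower by a log2 fold change of -1.16 ± 0.18 (SE, adjusted p = 0.00102, edgeR).

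Tex52, little characterised, was measured at 10.7, 13.1, 7.25, 13.6 and 17.2 CPM in wild type libraries and at 4.32, 4.21, 2.79 and 4.45 CPM in mutant ones. The 2 groups did not overlap, and the log2 fold change was -1.64 ± 0.25 (SE, adjusted p = 9.86e-04, edgeR). Exons of Tex52 overlap Foxm1 and Gm44596 on the same strand and 6.98% of its 50-base windows occur in other genes, so its count is uncertain.

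Tex13c3 belongs to the X-linked TEX13 family, whose products are germ cell proteins. It was the weakest of the called genes in expression, with 14 to 52 counts per library. Wild type testes had 2.29, 3.33, 1.995, 3.02 and 4.06 CPM and mutant testes 1.20, 1.27, 0.954 and 1.11 CPM. No mutant value reached the lowest wild type value (log2 fold change -1.36 ± 0.26, SE, adjusted p = 0.00417, edgeR). The call was lost in 7 of 16 alternatives, among which the unadjusted p could not lose it. Its count is uncertain, as 9.55% of its 50-base windows also occur in Gm40. Of the other 3 members of the family, Tex13a had a log2 fold change of -0.41 (adjusted p = 0.229, edgeR), Tex13c1 of -0.13 and Tex13b of 0.15, and none passed.

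Spata32, which encodes an acrosomal protein, was called at the edge of the limits. Its values were 74.2, 88.0, 39.9, 67.0 and 89.1 CPM in wild type and 41.6, 35.9, 33.5 and 28.5 CPM in mutant testes. The groups overlapped, because wild type replicate 3 was below Rfx2-/- replicate 1. The log2 fold change was -1.04 ± 0.22 (SE, adjusted p = 0.00977, edgeR). The call did not hold in 11 of 16 alternatives, among which the unadjusted p could not lose it.

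Spata4, a highly expressed gene whose product has a calponin-homology-like domain, missed the call by both limits in the fit over all libraries. Wild type libraries gave 777.1, 801.4, 623.5, 760.1 and 869.1 CPM, and mutant libraries 292.3, 592.1, 295.1 and 413.2 CPM. All 4 mutant values were under the lowest wild type value, but Rfx2-/- replicate 2 came close to it. The log2 fold change was -0.94 ± 0.22 (SE, adjusted p = 0.015, edgeR) over all libraries and -1.20 (adjusted p = 9.63e-05) without that library, which made it a called gene.

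Tex29, little characterised, was the only member past an adjusted p of 0.05 in the higher direction. Its wild type libraries held 90.4, 85.2, 59.8, 92.3 and 88.3 CPM and its Rfx2-/- libraries 123.4, 135.4, 137.7 and 140.3 CPM. The groups were separate and the mutant values close together. The log2 fold change was 0.69 ± 0.15 (SE, adjusted p = 0.0098, edgeR), less than 2-fold.

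**Figure D2:**
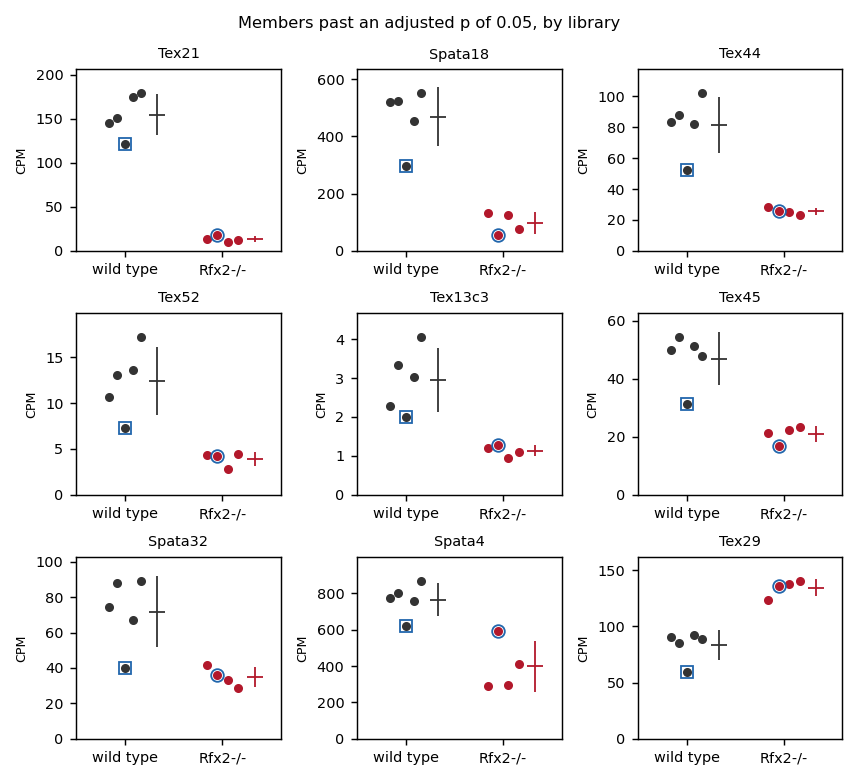
Level of each of the 9 members past an adjusted p of 0.05 in every library (points, CPM on a linear axis from 0), with the mean and SD of each genotype beside them, wild type in black and Rfx2-/- in red. Blue squares mark wild type replicate 3 and blue circles Rfx2-/- replicate 2, and Spata32 is the panel in which the genotypes overlap.

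In the panels by library, wild type replicate 3 is the lowest wild type point for each of the 9 members, and the elongating spermatid markers were lower in this library too. The part of this library's cell composition in the results was not tested. Of all genes tested, 9.7% had all Rfx2-/- libraries below all wild type libraries and 6.16% had them above, against 8 and 3 of the 62 members.

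The SPATA31 family, testis proteins of a multicopy gene cluster, had no member past either limit in the fit over all libraries. Its 5 genes were all below 0 in that fit, with a median log2 fold change of -0.41, where 46.9% of all genes tested were below 0. Without Rfx2-/- replicate 2 the median was -0.12, and Spata31d1c and Spata31d1d were above 0 (0.10 and 0.22). Spata31 was at 196.7, 215.7, 158.7, 235.0 and 211.6 CPM in wild type libraries and at 177.1, 54.9, 200.2 and 182.6 CPM in mutant ones. Only Rfx2-/- replicate 2 lay below the wild type range. Spata31d1d showed the same pattern, with 42.8 CPM there and 162.0 to 208.9 CPM in the other 3 mutant libraries, against 115.8 to 172.2 CPM in wild type. Spata31d1a had the largest fold change of the family, from 109.3 ± 24.9 to 56.1 ± 26.0 CPM (log2 fold change -0.96, adjusted p = 0.0778, edgeR), and passed the adjusted p of 0.05 without Rfx2-/- replicate 2 (-0.69, adjusted p = 0.0366), without Rfx2-/- replicate 1 (-1.19, adjusted p = 0.0266), with the length trend removed (adjusted p = 0.0173) and with DESeq2 (adjusted p = 0.0244). Spata31d1b, at -0.63 (adjusted p = 0.101, edgeR), passed with the length trend removed (adjusted p = 0.0435) and without wild type replicate 3 (-0.73, adjusted p = 0.0309). Spata31d1a and Spata31d1b share 21.04% and 24.9% of their 50-base windows with other genes, each other included, so that their counts are uncertain.

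None of the 6 members of early germ cells and meiosis passed in the fit over all libraries. All were above 0 in that fit, with a median log2 fold change of 0.31. Without Rfx2-/- replicate 2 the median was 0.20, with Tex19.2 at -0.05 and Tex19.1 at 0.02. Tex101, a surface protein of germ cells needed for sperm migration through ADAM3, measured 212.6, 201.6, 243.6, 218.6 and 176.0 CPM in wild type and 220.5, 667.8, 295.8 and 328.4 CPM in mutant testes. Tex11, an X-linked meiotic gene, had 19.0, 18.7, 18.3, 18.7 and 16.6 CPM against 19.13, 53.8, 23.9 and 23.6 CPM. In both genes Rfx2-/- replicate 2 was more than any other library, and the log2 fold changes of 0.85 (adjusted p = 0.0674, edgeR) and 0.72 (adjusted p = 0.102) became 0.42 and 0.28 without it. Tex101 passed the adjusted p of 0.05 with DESeq2, with total counts, with the length trend removed and without Rfx2-/- replicate 1, and Tex11 passed without that library (0.92, adjusted p = 0.0283, edgeR). The summed spermatocyte markers were likewise 3187 CPM in that library, against 1628 to 1978 in the other Rfx2-/- libraries and 1288 to 1614 in wild type, and their part in these values was not tested. Tex15, which acts in transposon silencing and meiosis, was at 176.3 ± 14.9 and 229.7 ± 54.7 CPM (log2 fold change 0.38, adjusted p = 0.155, edgeR). Tex14, required for the intercellular bridges of germ cells, had a log2 fold change of 0.01 with a 95% interval of -0.41 to 0.43. Tex19.1, which restrains retrotransposons, gave 0.23 and its neighbour Tex19.2 gave 0.14.

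Among the other members listed here under flagellum, cilium or centrosome, which were Spata7, Spata17, Tex43 and Tex9, none passed. This list leaves out Tex45, which was called lower, and the sperm microtubule genes Tex33 and Tex37. Spata7, a protein of the connecting cilium of photoreceptors, went from 316.1 ± 62.3 CPM in the wild type libraries to 274.7 ± 36.9 CPM in the mutant ones, with a log2 fold change of -0.20 (adjusted p = 0.461, edgeR). Spata17, with calmodulin-binding IQ motifs, had 92.1 ± 15.9 and 100.5 ± 15.99 CPM, and Tex43, a protein of sperm microtubules, 58.4 ± 11.6 and 68.0 ± 21.6 CPM. Tex9 was at 59.3 ± 3.35 and 56.2 ± 6.01 CPM. Its count and fold change are uncertain, as 71.3% of its 50-base windows occur in other genes. Among these is its neighbour Mns1, which overlaps it on the opposite strand. The acrosomal gene Spata16, whose human mutations cause round-headed sperm, was at 352.9 ± 34.5 and 321.0 ± 52.9 CPM. Spata46, which shapes the sperm head, had a log2 fold change of 0.06 with a 95% interval of -0.40 to 0.52.

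None of the 9 widely expressed members passed, and Spata13 did so with the length trend removed (adjusted p = 0.0226, edgeR). Their log2 fold changes ran from -0.51 for Spata13, a guanine nucleotide exchange factor, to 0.40 for Tex30, of whose 50-base windows 16.4% occur in another gene, with a median of -0.01. Spata2, which joins the deubiquitinase CYLD to the LUBAC ligase, was at 29.7 ± 1.44 and 22.2 ± 7.35 CPM. All its mutant libraries were below wild type, as were those of 9.7% of all genes tested. The highest mutant value was 27.53 CPM and the lowest wild type value 27.58 CPM. Rfx2-/- replicate 2 was the lowest at 11.8 CPM. Without it the log2 fold change of -0.42 (adjusted p = 0.225, edgeR) became -0.21 (adjusted p = 0.246). Tex264, a receptor for autophagy of the endoplasmic reticulum, was at 67.0 ± 5.63 and 54.9 ± 9.10 CPM, and Tex10, a factor of ribosome biogenesis, at 152.3 ± 13.9 and 168.9 ± 30.9 CPM.

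An RFX2 promoter peak at P21 was listed by the study for 11 of the 62 members (17.7%) and for 6.1% of the genes tested: Spata2, Spata4, Spata7, Spata17, Spata18, Spata24, Spata45, Tex9, Tex21, Tex26 and Tex33. Of these 11, 2 were called lower (Tex21 and Spata18) and Spata4 passed the adjusted p of 0.05, and without Rfx2-/- replicate 2 Spata4 was called as well. Of all 953 genes with such a peak that were tested, 106 (11.1%) were called lower. The log2 fold change was below 0 in 10 of the 11, with a median of -0.42 (-0.35 without Rfx2-/- replicate 2), and in 23 of the 51 members without a peak, with a median of 0.06 (-0.05 without that library). The difference between these groups was not tested. All genes with a peak had a median of -0.18. The members with a peak thus ranged from Tex21 down to values near 0, such as Tex9 at -0.08, Tex33 at -0.12, Spata24 at -0.12 and Spata17 at 0.13. Spata45 and Tex26 had log2 fold changes of -0.42 and -0.44 (adjusted p = 0.179 and 0.086, edgeR), and both passed the adjusted p of 0.05 without Rfx2-/- replicate 2 (adjusted p = 0.0499 and 0.0311). Of the 7 called members, 5 had no listed peak.

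**Figure D3:**
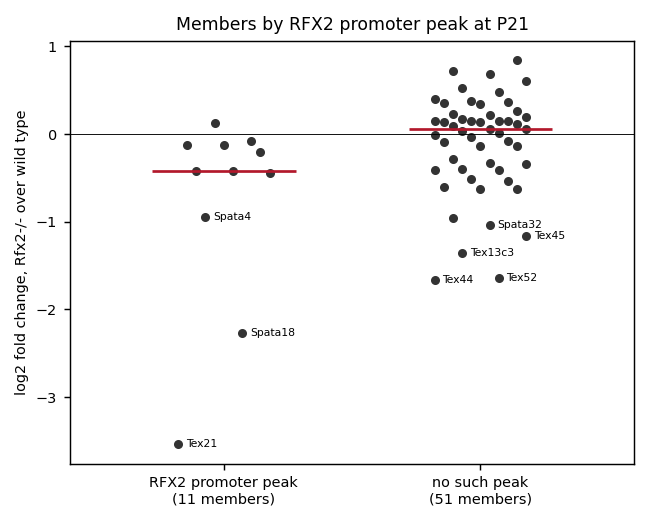
Log2 fold change of the 11 members with an RFX2 promoter peak at P21 and the 51 members without one (points, 1 per gene), with the median of each set as a red line at -0.42 and 0.06. Tex21, Spata18 and Spata4 lead the set with a peak, and Tex44, Tex52, Tex13c3, Tex45 and Spata32 the other.

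The plot by promoter peak shows that a peak was present both at members that lost most of their mRNA and at members whose values overlapped between genotypes. RefSeq promoter windows, from 250 bases before to 50 after each start, were given for 54 of the 62 members (65 windows). An X-box match was found in 6 member windows of 5 genes (9.23%), and in 2.17% of all 32851 windows. Of the 10 members with a peak and a window, Spata4, Tex33 and Tex9 held a match, and of the 44 others Tex264 and Spata31d1c. None of the 7 called members had an exact match in these windows. Sites with a changed letter, as in the Tex21 stretch above, sites outside the windows and members without a window were not covered by this search. The shorter motif GTTGCC, which is one arm of the X-box, was in 18.5% of member windows and 12.5% of all, and it lies within the X-box match of Spata4, Tex33 and Tex9. The cAMP response element TGACGTCA occurred in 1 member window, that of Spata7, and in 1.79% of all. The stretches around the X-box of the 3 members with a peak are shown, from 70 bases before to 20 after the start on the strand of the gene, with the match in capitals, because these are the members in which an exact match and a peak occurred together.
Spata4, chr8:54600711-54600800, plus strand: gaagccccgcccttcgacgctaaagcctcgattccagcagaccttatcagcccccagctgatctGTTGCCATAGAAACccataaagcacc
Tex33, chr15:78395893-78395982, minus strand: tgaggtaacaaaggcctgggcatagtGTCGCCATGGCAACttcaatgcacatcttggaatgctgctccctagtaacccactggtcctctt
Tex9, chr9:72491940-72492029, minus strand: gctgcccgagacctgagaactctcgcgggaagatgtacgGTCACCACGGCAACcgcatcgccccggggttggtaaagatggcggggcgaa

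The matches began 6, 44 and 31 bases before the start of Spata4, Tex33 and Tex9. Spata4 was at 52.0% of wild type in Rfx2-/- testes, Tex33, a microtubule protein of the sperm tail, at 91.9% and Tex9 at 94.7%, and only Spata4 passed the adjusted p of 0.05.

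Levels of different genes were compared per kb of merged exon. Spata4 was the most abundant member in wild type, at 724.9 ± 85.1 CPM per kb (n = 5), followed by Spata20, with a thioredoxin domain, at 446.3 ± 89.0, the EF-hand gene Spata21 at 409.3 ± 113.4, Spata24 at 389.7 ± 65.8, Tex33 at 310.9 ± 59.5 and Spata19 at 302.9 ± 56.9. The count of Spata24, and with it its level, rank and fold change, is uncertain, since 56.1% of its 50-base windows occur in a second entry, SPATA24, that overlaps it on the same strand. For Spata4 the share found in another gene was 6.75%. Spata4 stood above Spata20 by more than either SD, whereas Spata20 and Spata21 differed by less than their SD, as did Tex33 and Spata19. In Rfx2-/- testes Spata4 was still first, at 376.7 ± 133.5 CPM per kb (n = 4), but within its SD of Spata24 at 357.8 ± 116.3. Spata18 went from rank 7, at 231.6 ± 51.01 CPM per kb, to rank 28, at 48.0 ± 18.3, and Tex21 from rank 23, at 66.2 ± 10.04, to rank 55, at 5.68 ± 1.41. In wild type 18 members were above 100 and 9 below 10 CPM per kb, the median was 46.2, and 49 of the 61 pairs of neighbours in the order differed by less than the larger SD.

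**Figure D4:**
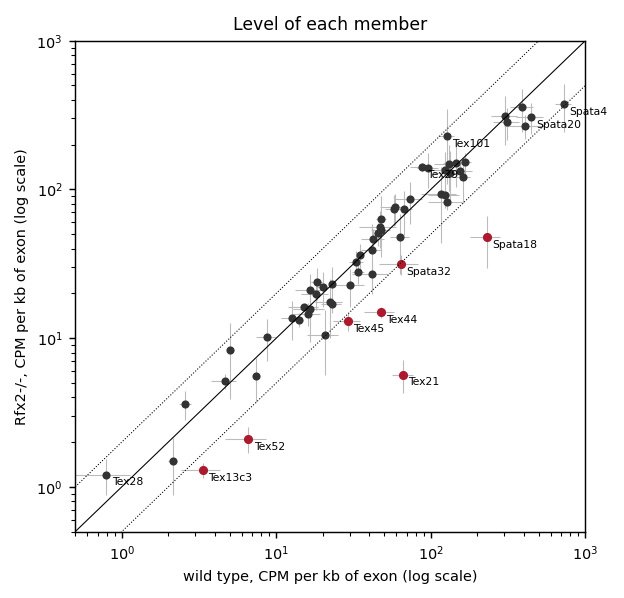
Level of each member in wild type against Rfx2-/- testes (CPM per kb of merged exon, mean with bars of 1 SD, both axes logarithmic), with called members in red, the diagonal drawn solid and 2-fold changes dotted. Spata18, Tex21, Tex44, Tex45, Tex52, Tex13c3 and Spata32 lie below the lower dotted line, and Spata4 remains the most abundant member.

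The plot of levels shows that called members ranged from Spata18 at 231.6 CPM per kb (rank 7 of 62) down to Tex13c3 at 3.36 CPM per kb (rank 59). None of the 6 most abundant members was called. Spata20 and Spata21, from 1172 to 808.4 CPM and from 1034 to 679.7 CPM, had log2 fold changes of -0.54 and -0.60 (adjusted p = 0.126 and 0.109, edgeR) and did not pass, while Spata21 did without wild type replicate 3 (-0.70, adjusted p = 0.038).

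Rfx2-/- replicate 2 was the highest mutant library for 39 of the 62 members and the lowest for 16. Which of these applied went with gene length. Of the 31 members under 2000 bases it was highest in 23, and of the 18 members over 3000 bases it was highest in 9 and lowest in 9. The Spearman correlation of its log2 deviation from the other Rfx2-/- libraries with exon length was -0.46 over 62 members, which share this library, and -0.56 over 15481 genes. The short gene Tex37, a sperm microtubule protein, measured 135.9 CPM here and between 51.04 and 61.3 CPM in the remaining mutant libraries. The 7 members that passed the adjusted p of 0.05 without this library and not with it were all lower, namely Spata3, Spata31d1a, Spata45, Tex13a, Tex26, Tex37 and Tex46. For Tex37 the log2 fold change went from -0.33 (adjusted p = 0.495, edgeR) to -0.77 (adjusted p = 0.017). When the length trend of every library was removed instead, 16 members passed (13 lower and 3 higher), against 18.7% of all genes, and 3 of these 7 were among them.

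**Figure D5:**
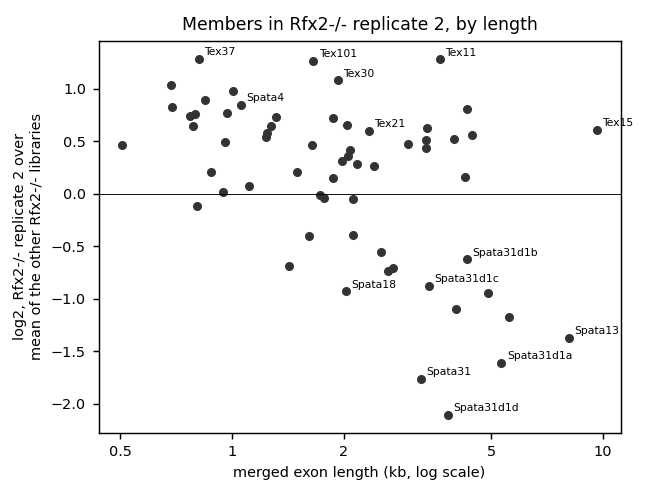
Log2 ratio of each member in Rfx2-/- replicate 2 over the mean of the other 3 Rfx2-/- libraries, against merged exon length (kb, logarithmic axis), 1 point per gene. Most members under 2 kb lie above 0, the SPATA31 genes and Spata13 lie below, and Tex11 and Tex15 are long genes above 0.

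The plot by length shows the split among long members, with the SPATA31 genes low in this library. The long members of the meiotic group went both ways, Tex11 and Tex15 being high (log2 deviations of 1.28 and 0.61) and Tex14 low (-0.95).

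Genes known to act with the members were given as a list of 24, all of which were tested. Dpy19l2, mutated in globozoospermia like SPATA16, was called lower (254.8 to 119.1 CPM, log2 fold change -1.10 ± 0.23, SE, adjusted p = 0.00817, edgeR), where 4.51% of all genes were called in either direction. Rpgrip1l, a transition zone gene related to the SPATA7 partner Rpgrip1, was higher at an adjusted p of 0.00376 by less than 2-fold (log2 fold change 0.73), while Rpgrip1 itself had a log2 fold change of -0.54 and did not pass. The other 22 did not pass, among them the TEX101 partner Adam3 at 0.21, the TEX14 partner Cep55 at 0.03 and the calcineurin subunit Ppp3cc at 0.19, and the median of the 24 was -0.03.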

How the data were processed

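Testis RNA was made into TruSeq libraries by the authors. The deposited values are raw counts of reads per gene. The submitters' processing notes name CASAVA 1.8.2, STAR 2.4, featureCounts 1.4.6 and GRCm38. Another aligner and read length appear elsewhere in the methods, and strand use is not given in the sources used here, so overlapping genes and near-identical copies may exchange or lose reads. Columns were matched to mice by the animal number in their names, and the p-values measure the spread between mice.

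GENCODE M21 held 96.6% of the gene IDs, and 2 further rows of these gene series are not reported here. The members, role groups and other lists were chosen with earlier results of these data known. Chi-square per gene between libraries of one genotype was at least 4.32, so none was a repeat of another. The counts were tested in edgeR 4.0.16 (R 4.3.3, quasi-likelihood F test, TMM, filterByExpr, robust), genotype being the single factor, with Benjamini-Hochberg adjustment over the 15613 genes, and the authors' limits of 2-fold and 0.01, the latter applied here to the adjusted p. SE was the log2 fold change divided by the square root of F. A detection floor of 3 counts (95%, counting error only) equals 0.0996 CPM in Rfx2-/- replicate 1 and 0.196 to 0.234 CPM elsewhere, and no printed member level was under it. The procedure was tested on simulated data. Alternatives were DESeq2 1.42.0, other scaling, no filter, a length correction, a test against 2-fold (glmTreat), the unadjusted p and leaving out each library. Named were members past an adjusted p of 0.05, the 6 most abundant, those with an RFX2 promoter peak or on the CREM list, members of role groups and Rfx2. Tex16, Tex22, Tex35, Tex37, Tex46 and Tex48 were outside these and were named after their values were seen. Sentences on Spata3, Spata20, Spata21 and Tex13a, which are within these, were also written after their values were seen. Promoter sequences are from RefSeq (GRCm38.p6), with 8 members unmatched. Shared sequence was the share of 50-base windows of a member's longest transcript found, on either strand, in transcripts of other genes.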

Additional observations from a re-analysis of the deposited data

Results flagged for a closer look

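A library far from the others of its genotype was found for 11 of the 124 sets of member values tested by Dixon's ratio, where about 1 in 20 groups stands out by chance, or 6.4 of the groups when the 4 sets of library measures are included. Rfx2-/- replicate 2 gave 5 of them: it was low for Spata31 (54.9 CPM, against 177.1 to 200.2 in the other Rfx2-/- libraries) and high for Spata7 (329.6 CPM, against 250.3 to 262.5), Tex11 (53.8 CPM, against 19.13 to 23.9), Tex30 (200.5 CPM, against 85.2 to 104.8) and Tex37 (135.9 CPM, against 51.04 to 61.3). Wild type replicate 3 was low for Spata31d1d (115.8 CPM, against 168.3 to 172.2), Tex29 (59.8 CPM, against 85.2 to 92.3) and Tex45 (31.2 CPM, against 47.9 to 54.4). The remaining 3 were Tex15 in wild type replicate 4 (202.7 CPM, against 166.9 to 172.2), Tex11 in wild type replicate 5 (16.6 CPM, against 18.3 to 19.0) and Tex52 in Rfx2-/- replicate 3 (2.79 CPM, against 4.21 to 4.45).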

How the results depend on the processing

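Of 992 values of the 62 members over 16 alternatives, 924 kept their direction and their side of the limits, 21 (5 members) lost the call, 1 gained it and 46 (18 members) changed sign. The cause was not tested. The unadjusted p and the test against a 2-fold change reuse the fold changes of the fit reported, so no sign could change there. Under the unadjusted p no call could be lost either, and these values count among those kept. In the fit reported 7 members were called lower, 2 (Tex21 and Spata18) when tested against a 2-fold change, and 5 to 7 when any 1 library was left out, and 0 were called higher throughout. Past an adjusted p of 0.05 there were 9 members, 16 with the length trend removed, and 8 to 16 with 1 library left out, the 16 being without Rfx2-/- replicate 2. Total counts moved the median of all genes by 0.13 (log2) and gave 8 lower and 4 higher in place of 8 and 1.

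The members that changed sign had small fold changes and did not pass in any of these fits. With total counts Spata24 was at 0.022, Spata31d1c at 0.066, Spata31d1d at 0.048, Tex13c1 at 0.012, Tex261 at 0.12, Tex33 at 0.026, Tex35 at 0.12 and Tex9 at 0.056, with no filter Tex261 at 0.01, and with the length trend removed Spata19 at -0.005 and Tex14 at -0.022. With 1 library left out, ranges were -0.24 to 0.21 for Spata19, -0.35 to 0.034 for Spata24, -0.021 to 0.27 for Spata2l, -0.23 to 0.10 for Spata31d1c, -0.26 to 0.22 for Spata31d1d, -0.10 to 0.30 for Spata33, -0.16 to 0.23 for Spata46, -0.084 to 0.15 for Spata5, -0.11 to 0.20 for Tex14, -0.05 to 0.29 for Tex19.2, -0.035 to 0.30 for Tex22, -0.15 to 0.082 for Tex261, -0.29 to 0.036 for Tex33, -0.34 to 0.14 for Tex35, -0.004 to 0.40 for Tex43, -0.058 to 0.36 for Tex48 and -0.11 to 0.028 for Tex9. No paired analysis was possible because the labels give each mouse its own number and the replicate numbers pair no animals.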

Other observations

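The X chromosome held 7 of the 62 members. Of these Tex13c3 was called lower, where 3.68% of all genes tested were called lower. Tex11 and Tex16 were higher in every Rfx2-/- library than in any wild type library, as were 6.16% of all genes tested. Neither passed the adjusted p of 0.05 over all libraries. For Tex11 the lowest Rfx2-/- value was 19.13 CPM and the highest wild type value 18.96 CPM. Tex16 went from 11.4 ± 1.004 CPM (SD, n = 5) to 15.97 ± 3.52 CPM (n = 4), with a log2 fold change of 0.49 (adjusted p = 0.0848, edgeR, and 0.0491 with total counts). CREM is a transcription factor of spermatids, and the study's list of its bound genes that are lower without it held 3 members. These were Spata3, Spata18 and Spata31d1d, with log2 fold changes of -0.63, -2.27 and -0.09. Spata18 was the called one, where 3.68% of all genes tested were called lower.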
